A study of Mus musculus with 2 samples.

Results

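The genes described here encode the lysosome: its proteases and other hydrolases, its membrane and transport proteins, the proton pump that acidifies it, and 3 transcription factors that control such genes. The list holds 56 mouse genes and was matched by gene symbol to the probe sets of a Clariom S Mouse Array, a microarray that reports 1 signal per probe set. Of the 56 genes, 51 had a probe set with that symbol, each exactly 1, among 19505 genes on the array. The other 5, Ctsd, Glb1, Cd68, Atp6v0c and Dnase2a, had none in the annotation used and were not analysed here.

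The arrays measured epididymal fat of male KO_A12 and WT_A12 mice, with 1 array per genotype, to ask what loss of Iah1 does to gene expression in fat. KO_A12 mice carry a CRISPR/Cas9 deletion in Iah1 that shifts its reading frame, on the A/J-12SM background, an A/J strain with chromosome 12 of SM/J. WT_A12 mice are A/J-12SM mice with intact Iah1. Both groups ate a high-fat diet for 12 weeks, starting at 6 weeks of age, and were deprived of food for 4 h before tissue collection. Each array was hybridized with RNA pooled across 3 mice of 1 genotype, labelled from 100 ng of total RNA. Because there are no replicates, no difference below has an error or a test, and genotype, pool and array cannot be told apart. The KO_A12 line was kept by mating homozygous mutants with each other, so that the groups came from separate breeding.

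Lysosomes are acidic organelles that break down lipids, proteins, glycans and nucleic acids delivered by endocytosis, phagocytosis and autophagy. The vacuolar H+-ATPase pumps protons through its membrane-embedded V0 sector, driven by ATP hydrolysis in its cytosolic V1 sector. The transcription factors Tfeb, Tfe3 and Mitf bind E-box sequences in the promoters of many lysosome genes. In the fat of obese mice, macrophages that take up lipid from adipocytes are rich in lysosomes, so that a whole-tissue RNA sample holds lysosome transcripts of several cell types. In such tissue, fewer cells of a type and less RNA per cell cannot be told apart.

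The E-box is shown first because Tfeb, Tfe3 and Mitf bind it. Of 13 measured genes with it, 10 were lower in KO_A12 fat, against 21 of the 30 measured genes whose promoter lacked it. Over all 51 measured lysosome genes, 39 were lower. RefSeq promoter sequences of GRCm38.p6, covering 250 bases before to 50 bases after the annotated start, were found for 48 of the 56 genes. Ctsb, Ctsh, Asah1, Npc1, Atp6v0d2, Atp6v1b2, Atp6v1c1 and Atp6v1h had no entry. The following stretches are written 5′ to 3′ on the strand of the gene, with the E-box hexamer CACGTG in capitals and everything else, including an M-box (tcatgtg) of Gla, in lower case. Ctsa, Gla, Naglu, Cln3 and Atp6v0b are genes with a lower signal in KO_A12 fat, by log2 differences between -0.91 and -0.42. Lamp1 (-0.16), Gaa (0.02) and Mcoln1 (0.03) carry the same hexamer with smaller differences. They lie at chr2:164833754-164833783 (plus strand) for Ctsa, chrX:134601186-134601240 (minus) for Gla, chr11:101069994-101070048 (plus) for Naglu, chr7:126583342-126583396 (minus) for Cln3, chr4:117887330-117887384 (minus) for Atp6v0b, chr8:13159094-13159160 (plus) for Lamp1, chr11:119267799-119267853 (plus) for Gaa and chr8:3500437-3500491 (plus) for Mcoln1.
Ctsa: aaactgtCACGTGatgcagatgctCACGTG
Gla: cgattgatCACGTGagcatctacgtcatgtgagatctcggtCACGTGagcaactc
Naglu: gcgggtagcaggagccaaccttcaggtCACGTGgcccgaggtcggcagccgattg
Cln3: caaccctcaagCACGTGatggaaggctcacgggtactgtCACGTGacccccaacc
Atp6v0b: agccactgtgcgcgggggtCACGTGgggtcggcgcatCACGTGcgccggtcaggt
Lamp1: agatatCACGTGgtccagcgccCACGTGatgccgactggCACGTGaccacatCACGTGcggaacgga
Gaa: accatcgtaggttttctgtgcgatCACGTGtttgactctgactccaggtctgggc
Mcoln1: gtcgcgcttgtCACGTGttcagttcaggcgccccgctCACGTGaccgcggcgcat

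The signals are on the log2 scale, and a difference is the signal of KO_A12 minus that of WT_A12, so that -1 stands for a signal 2-fold lower in KO_A12 fat. Over all 22206 probe sets the median difference was 0 and the central 95% ran between -0.84 and 0.86. The median signals of the arrays were 6.51 for KO_A12 and 6.5 for WT_A12, and those of the background controls were 5.61 and 5.75 on the same arrays. Iah1, the targeted gene, had a signal of 8.35 in KO_A12 fat and 9.52 in WT_A12 fat, a difference of -1.17. No source used here says where its probes lie relative to the deletion. In tissues of KO_A12 mice, the study detected neither Iah1 mRNA by qPCR nor IAH1 protein by western blot. The KO_A12 array stood apart in transcripts of other organs. The liver gene Alb had signals of 15.99 in KO_A12 and 8.22 in WT_A12, and the seminal vesicle gene Svs5 had 12.25 in KO_A12 and 4.25 in WT_A12. All 4 liver markers and all 3 seminal vesicle markers were higher in KO_A12, with median differences of 4.99 and 7.96, and their part in the differences of lysosome genes was not tested. White adipocyte markers had high signals on both arrays (15.12 to 19.05 in KO_A12 and 15.1 to 19.1 in WT_A12).

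Most lysosome genes had a lower signal in KO_A12 fat. Of the 51 measured genes, 39 (76.5%) had a negative difference, against 49.8% of all probe sets and 55.7% of the 9841 probe sets with a signal over 7 on both arrays. The differences were mostly small, with a median of -0.27, quartiles of -0.44 and -0.03, and a range of -1.32 to 0.54. The median was -0.042 over the 9841 probe sets. Signals exceeded 7 on both arrays for 50 of the 51 genes. Acp2, lysosomal acid phosphatase 2, exceeded it in WT_A12 alone (6.96 in KO_A12 and 7.45 in WT_A12).

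At a cutoff of 2-fold, with a signal over 7 on the higher array, 2 of the 51 genes were lower in KO_A12 and 0 were higher. Over all probe sets the shares past these cutoffs were 0.757% lower and 0.567% higher, and 1.22% of the probe sets over 7 on both arrays were 2-fold lower. These 2 genes, Atp6v0d2 and Lipa, are also in the study's own list of lower genes, which was chosen on these samples, so that they are not independent evidence of a direction. The study remeasured other listed genes in epididymal fat by qPCR. Sfrp4 was significantly lower there and Metrnl tended to be lower, while the remaining changes it remeasured were not borne out. Neither Atp6v0d2 nor Lipa is named among the genes remeasured. At 1.5-fold (a difference of 0.58), 9 genes were lower, which were Atp6v0d2, Lipa, Ctsa, Mitf, Gla, Ctss, Gusb, Ctsk and Naglu. Naglu fell short of this cutoff under quantile normalization and a lowess trend (-0.58 under each), and Ctsk under the lowess trend (-0.58). None of the 51 was 1.5-fold higher. The shares over all probe sets were 3.71% lower and 2.19% higher, and over those above 7 on both arrays 6.68% and 3.14%. They are also the background for the counts of each smaller group below.

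**Figure D1:**
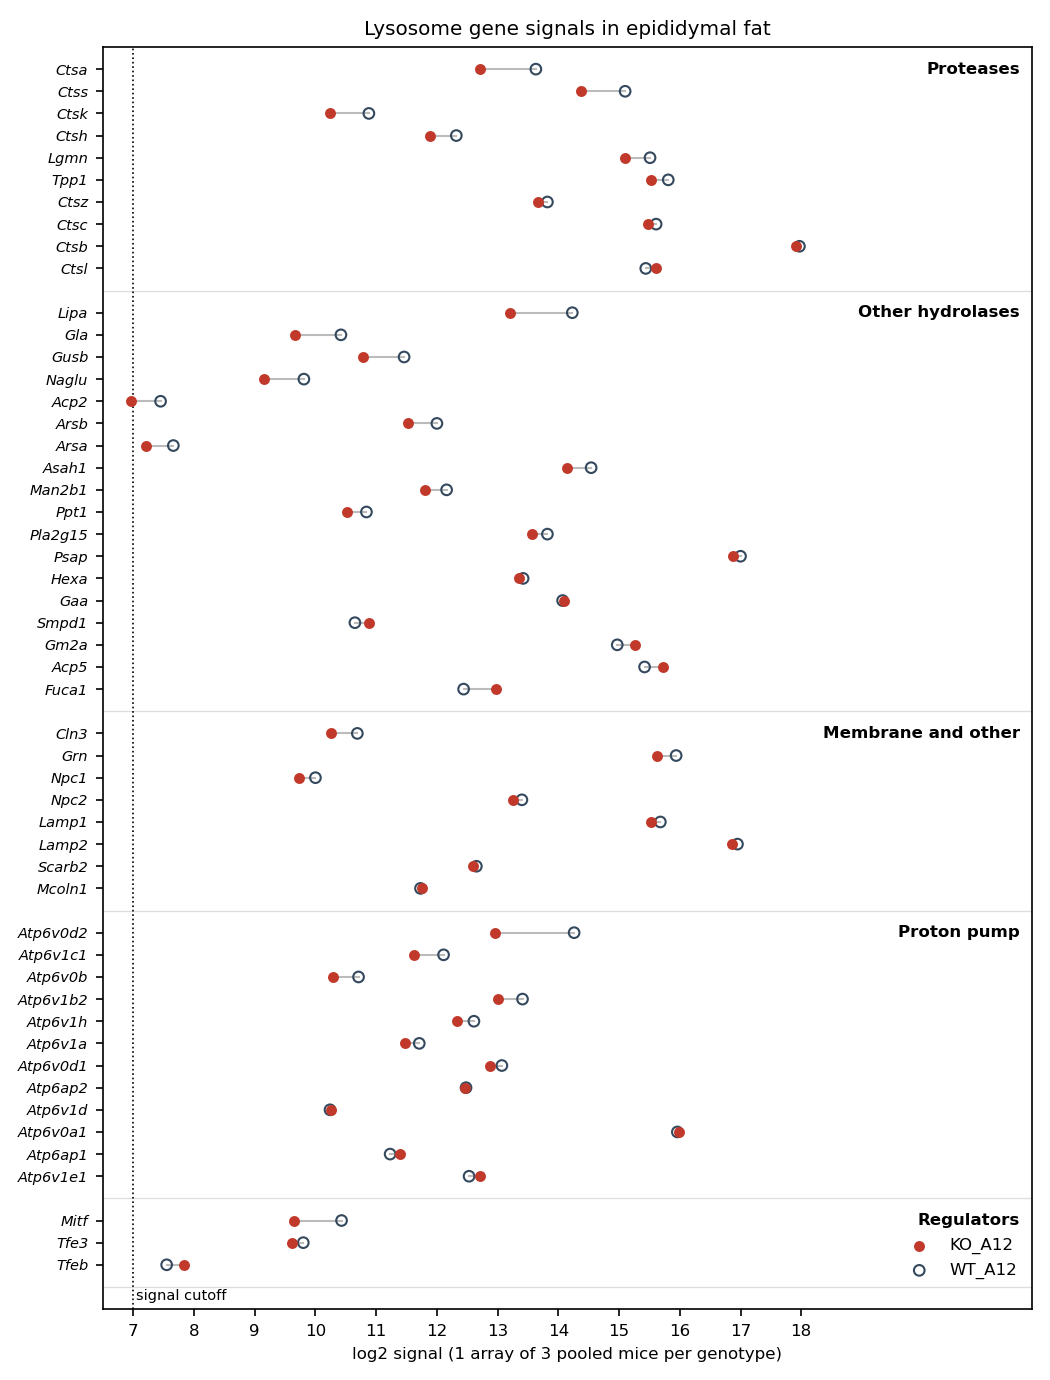
Log2 signals of the 51 measured lysosome genes in KO_A12 (filled points) and WT_A12 (open points) epididymal fat, 1 array of 3 pooled mice per genotype, grouped by role and ordered by difference. The dotted line marks a signal of 7; the gap is widest for Atp6v0d2, at 12.95 in KO_A12 and 14.26 in WT_A12.

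Lysosomal proteases leaned lower in KO_A12 fat. Of 10 measured proteases, 9 had a negative difference, with a median of -0.35. Past 1.5-fold lower were 3, against 6.68% of probe sets over 7 on both arrays. Ctsa, a serine carboxypeptidase that also protects beta-galactosidase and neuraminidase in the lysosome, had a signal of 12.71 in KO_A12 and 13.63 in WT_A12. Its difference was -0.91, a ratio of 0.531, and 1.72% of the probe sets over 7 on both arrays lay lower. Ctss, the cysteine protease that trims the invariant chain in antigen-presenting cells, had 14.38 in KO_A12 and 15.1 in WT_A12, a difference of -0.72 and a ratio of 0.607. Ctsk, a collagen-degrading cathepsin best known in osteoclasts, had 10.24 in KO_A12 and 10.88 in WT_A12, a difference of -0.65 and a ratio of 0.639. The related cysteine protease Ctsl had 15.61 in KO_A12 and 15.44 in WT_A12 and was the only protease with a positive difference, 0.17. Of the 7 measured cysteine cathepsins, 6 were lower, with a median of -0.17.

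The other proteases differed by less than 1.5-fold. Ctsh, an aminopeptidase, had signals of 11.89 in KO_A12 and 12.32 in WT_A12. Lgmn, an asparaginyl endopeptidase that matures other cathepsins, had 15.1 in KO_A12 and 15.51 in WT_A12. Tpp1, a tripeptidyl peptidase lost in a neuronal ceroid lipofuscinosis, had 15.52 in KO_A12 and 15.81 in WT_A12. The exopeptidases Ctsz and Ctsc had differences of -0.17 and -0.14. Ctsb, an abundant cysteine protease, had 17.92 in KO_A12 and 17.97 in WT_A12, a difference of -0.05.

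Among the hydrolases of lipids, glycans and sulfate esters, 13 of 18 measured genes were lower in KO_A12 fat, with a median difference of -0.34. Lipa, the acid lipase that frees cholesterol and fatty acids from cholesteryl esters and triglycerides in the lysosome, had a signal of 13.21 in KO_A12 and 14.23 in WT_A12. The difference was -1.02, a ratio of 0.493, only just past the 2-fold cutoff, and 1.11% of probe sets over 7 on both arrays were lower. Gla, the alpha-galactosidase lost in Fabry disease, had 9.66 in KO_A12 and 10.42 in WT_A12, a difference of -0.76. Gusb, a beta-glucuronidase, had 10.79 in KO_A12 and 11.46 in WT_A12, a difference of -0.67. Naglu, which removes N-acetylglucosamine from heparan sulfate, had 9.16 in KO_A12 and 9.81 in WT_A12, a difference of -0.65. All 4 of these enzymes were past 1.5-fold as deposited.

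Sphingolipid enzymes and their helpers did not share a direction. Asah1, acid ceramidase, had signals of 14.15 in KO_A12 and 14.54 in WT_A12 (difference -0.39), and the sulfatase Arsa had 7.21 in KO_A12 and 7.66 in WT_A12 (difference -0.45). Smpd1, acid sphingomyelinase, had 10.89 in KO_A12 and 10.65 in WT_A12, a difference of 0.24. Gm2a, the activator that presents GM2 ganglioside to the hexosaminidase made with Hexa, had 15.27 in KO_A12 and 14.97 in WT_A12, a difference of 0.30. Hexa itself and Psap, the precursor of the saposin activators, were at -0.06 and -0.12.

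The highest difference of any of the 51 genes was that of Fuca1, an alpha-fucosidase of glycoproteins, with 12.98 in KO_A12 and 12.44 in WT_A12. It was 0.54, a ratio of 1.45, and 3.87% of probe sets over 7 on both arrays were higher still. Acp5, the tartrate-resistant acid phosphatase of osteoclasts and macrophages, had 15.72 in KO_A12 and 15.42 in WT_A12, a difference of 0.30. The remaining hydrolases lay between -0.49 and 0.02. They were Acp2 at -0.49, the sulfatase Arsb at -0.47, the alpha-mannosidase Man2b1 at -0.35, the palmitoyl-protein thioesterase Ppt1 at -0.32, the phospholipase Pla2g15 at -0.27 and Gaa, the acid alpha-glucosidase of glycogen, at 0.02.

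Membrane, transport and associated proteins also leaned lower. Of 8 measured, 7 were lower in KO_A12, with a median of -0.16, against -0.27 for all 51 genes. In either direction 0 were past 1.5-fold, which says little for 8 genes. Among probe sets over 7 on both arrays, 6.68% were past that cutoff lower and 3.14% higher. Lamp1 and Lamp2, the major glycoproteins of the lysosomal membrane, had signals of 15.52 and 16.86 in KO_A12 and of 15.68 and 16.95 in WT_A12, with differences of -0.16 and -0.09. Scarb2, which carries glucocerebrosidase to the lysosome, was at -0.06. Npc1 and Npc2, which together export cholesterol, were at -0.27 and -0.16. Mcoln1, a calcium channel of the lysosome, had 11.76 in KO_A12 and 11.73 in WT_A12. Cln3, a membrane protein lost in juvenile ceroid lipofuscinosis, had the lowest difference of the group (-0.43), followed by Grn, progranulin, at -0.31.

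Within the proton pump, 1 subunit stood apart from the others. Atp6v0d2, a d subunit of the V0 sector known from osteoclasts and macrophages, had a signal of 12.95 in KO_A12 and 14.26 in WT_A12. Its difference of -1.32, a ratio of 0.402, was the lowest of the 51 genes, and 0.254% of probe sets over 7 on both arrays lay lower. Its paralogue Atp6v0d1, the d subunit found in most cells, had 12.87 in KO_A12 and 13.07 in WT_A12, a difference of -0.20. Of 12 measured pump genes, 8 were lower, with a median of -0.22, and only Atp6v0d2 was past 1.5-fold.

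The rest of the pump lay between -0.49 and 0.18. In the V1 sector, 4 of 6 measured subunits were lower, with a median of -0.26. Atp6v1c1 had 11.62 in KO_A12 and 12.11 in WT_A12 (difference -0.49), and the ATP-binding subunits Atp6v1a and Atp6v1b2 were at -0.25 and -0.40. Atp6v1h was at -0.28, Atp6v1d at 0.02 and Atp6v1e1 at 0.18. In the V0 sector, Atp6v0b, a proteolipid of the rotating ring, had 10.29 in KO_A12 and 10.71 in WT_A12 (difference -0.42), while Atp6v0a1 had 15.98 in KO_A12 and 15.96 in WT_A12 (difference 0.02). The accessory subunits Atp6ap1 and Atp6ap2 were at 0.16 and -0.02, and the sign of Atp6ap2 turned to 0.01 under both quantile normalization and a lowess trend.

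The 3 transcription factors did not share a direction. Mitf had a signal of 9.64 in KO_A12 and 10.43 in WT_A12, a difference of -0.78 and a ratio of 0.581, and 3.12% of probe sets over 7 on both arrays were lower. Tfe3 had 9.62 in KO_A12 and 9.8 in WT_A12, a difference of -0.18. Tfeb had 7.84 in KO_A12 and 7.55 in WT_A12, a difference of 0.29. These factors are controlled largely by phosphorylation and location in the cell, which a transcript signal does not measure.

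**Figure D2:**
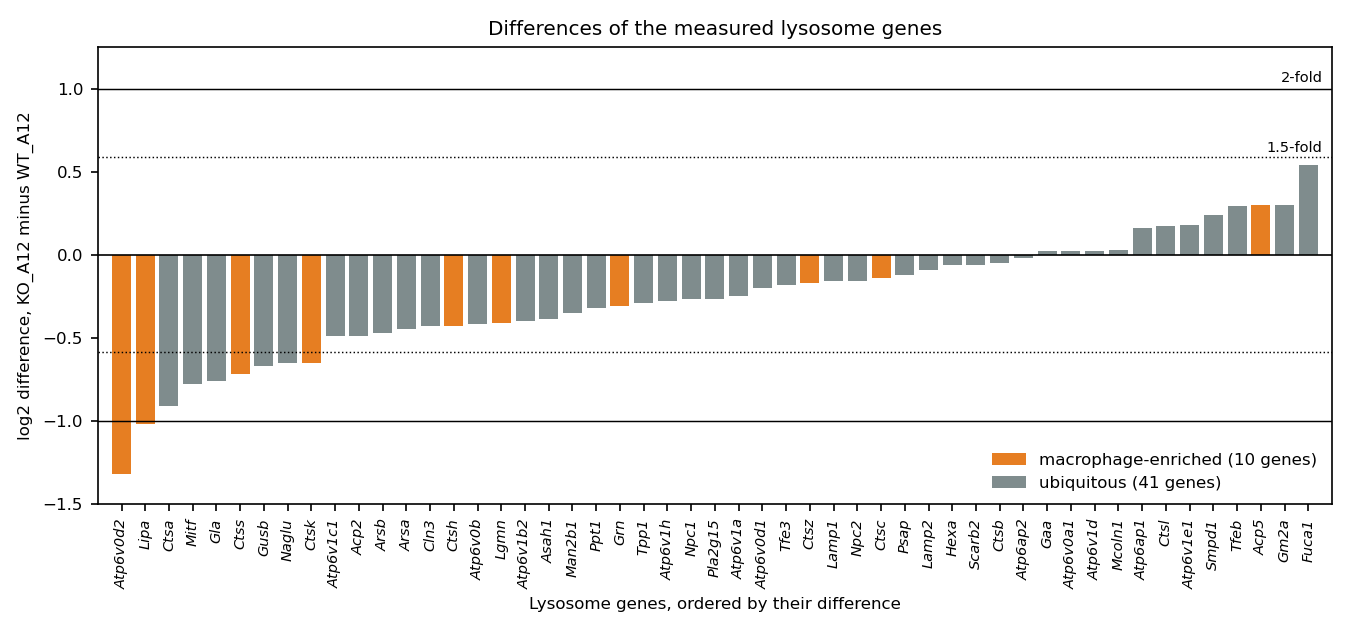
Log2 difference (KO_A12 minus WT_A12, 1 array each) of the 51 measured lysosome genes as bars, in order, with the 10 macrophage-enriched genes in orange and the 41 ubiquitous genes in grey. Solid and dotted lines mark 2-fold and 1.5-fold; 39 bars lie below 0, and the lowest is Atp6v0d2 at -1.32.

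The genes were also divided into those enriched in macrophages and those used by most cells. The macrophage-enriched class held Lipa, Ctsc, Ctsh, Ctsk, Ctss, Ctsz, Lgmn, Grn, Acp5, Atp6v0d2 and the unmeasured Cd68. Of the 10 measured, 9 were lower in KO_A12, with a median difference of -0.42, 2 past 2-fold and 4 past 1.5-fold. Among probe sets over 7 on both arrays, the shares were 1.22% and 6.68%. The 2 past 2-fold are Lipa and Atp6v0d2, and the class was drawn with earlier results of these data known. Of the 41 ubiquitous genes, 30 were lower, with a median of -0.20, 0 past 2-fold and 5 past 1.5-fold (Ctsa, Mitf, Gla, Gusb and Naglu). The medians differed by -0.22, and without Lipa and Atp6v0d2 the macrophage-enriched median was -0.36. With Ctsk counted as ubiquitous, the medians were -0.41 and -0.22, a difference of -0.18. This order depended on where the class was drawn. With 3 measured genes (Ctss, Acp5 and Atp6v0d2) the medians were -0.72 and -0.26, but with 17 measured genes, adding Ctsb, Psap, Gm2a, Npc2, Mitf, Atp6ap2 and Hexa, they were -0.17 and -0.27, and the sign of their difference was reversed (0.10).

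Macrophage markers were lower in KO_A12 fat as well. Of 17 measured markers, 16 were lower in KO_A12, with a median of -0.67 and a range of -1.22 to 0.08. Past 1.5-fold lower were 11, against 6.68% of probe sets over 7 on both arrays. Csf1r, the receptor for macrophage colony-stimulating factor, had 13.82 in KO_A12 and 14.49 in WT_A12. Adgre1, which encodes F4/80, had 11.28 in KO_A12 and 11.85 in WT_A12. Tyrobp, a signalling adaptor of myeloid receptors, had the lowest difference (-1.22), and Mertk, a receptor for dying cells, was the exception at 0.08. Of the 51 lysosome genes, 7 lay below the marker median. Among probe sets over 7 on both arrays, 4.69% lay lower than Gusb (-0.67), the highest of these 7. The share lower than Ctsk (-0.65), the next gene above, was 5.17%. All 5 fibroblast markers were lower (median -0.71, range -1.31 to -0.12), and all 5 endothelium markers were higher (median 0.34). Of 4 mesothelium markers, 3 were higher (median 0.64), but Upk3b alone had signals over 7 on both arrays, with 10.51 in KO_A12 and 9.61 in WT_A12. The 11 white adipocyte markers had a median of 0.02 and a range of -0.09 to 0.34. The part of cell composition in the lysosome differences was not tested.

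Lysosome genes outside the list leaned the same way. Of 47 measured, 34 (72.3%) were lower in KO_A12, with a median of -0.18. Past 1.5-fold, 6 were lower and 0 higher, against 6.68% and 3.14% of probe sets over 7 on both arrays. Slc11a1, a metal transporter of the phagosome in macrophages, had 11.51 in KO_A12 and 12.67 in WT_A12 (difference -1.16). Scpep1, a serine carboxypeptidase like Ctsa, had 11.37 in KO_A12 and 12.52 in WT_A12 (difference -1.15). Man2b2, an alpha-mannosidase, had 9.56 in KO_A12 and 10.61 in WT_A12 (difference -1.05), and these 3 were past 2-fold. Pld3, an exonuclease of the lysosome, was at -0.98.

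Neighbouring pathways were mixed. Of 12 other proton pump subunits, 8 were lower and 0 past 1.5-fold, with a median of -0.08. Only 6 of them had signals over 7 on both arrays, and these 6 were all lower, with a median of -0.22, the same as that of the 12 pump genes above. They included Tcirg1, the a3 subunit, at -0.52. Of 18 genes of the Ragulator complex and mTORC1, the nutrient-sensing kinase complex at the lysosome surface, 13 were lower, with a median of -0.12 (-0.17 over the 16 with signals over 7 on both arrays) and 1 past 1.5-fold. That gene was Fnip2, a folliculin partner, with 8.4 in KO_A12 and 9.3 in WT_A12. Of 19 autophagy genes, 10 were lower and 9 higher, with a median of -0.02, and over the 18 with signals over 7 on both arrays it was 0.01. Atg7 (9.45 in KO_A12 and 10.24 in WT_A12) and Map1lc3b (12.97 in KO_A12 and 13.7 in WT_A12), both needed to form autophagosomes, were past 1.5-fold lower, and Gabarapl2, of the same family as Map1lc3b, was 1.5-fold higher at 0.68. Among inhibitors of cathepsins, 3 of 7 had signals over 7 on both arrays, which were Cst3 at 0.23, Cstb at -0.07 and Serpinb6a at -0.42. The other 4 had signals below the median of the background controls on both arrays and could not be judged.

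**Figure D3:**
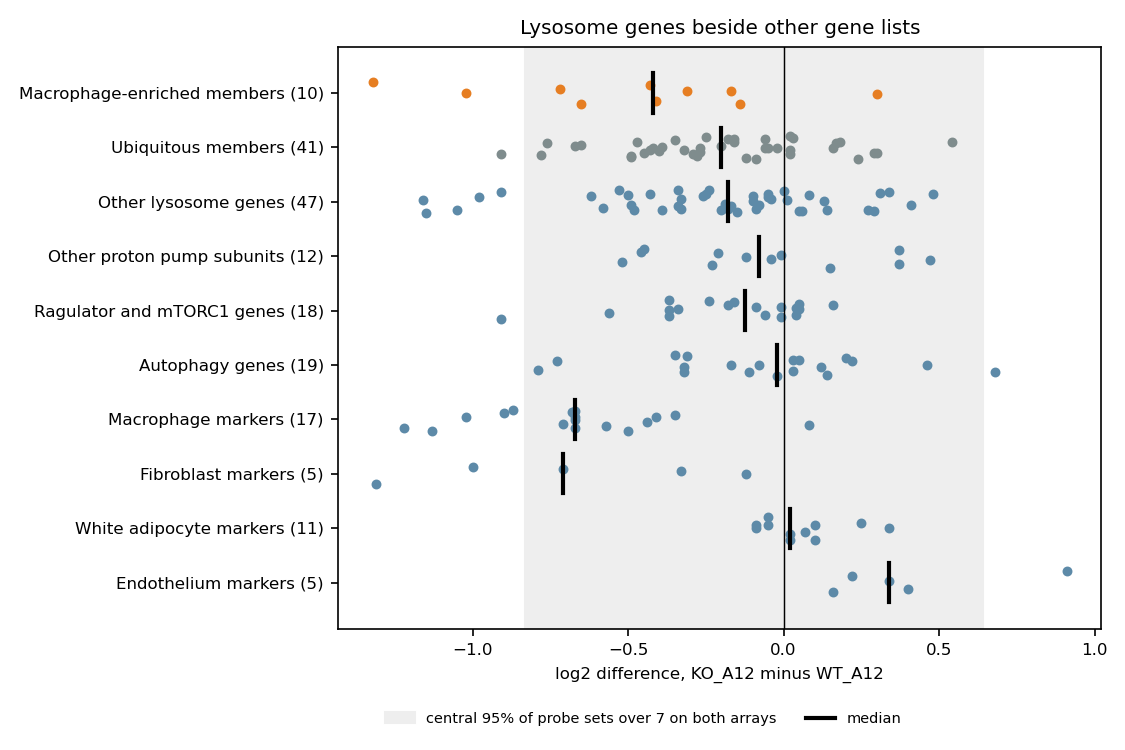
Log2 difference (KO_A12 minus WT_A12, 1 array each) of the measured genes in each list, 1 point per gene, with the number of genes in parentheses and black bars for medians. Shading spans the central 95% (-0.83 to 0.64) of probe sets with a signal over 7 on both arrays; the medians were -0.42 for macrophage-enriched lysosome genes, -0.20 for ubiquitous ones and -0.67 for macrophage markers.

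The E-box CACGTG, a palindrome and so the same on both strands, was in the promoters of 15 of the 48 lysosome genes with an entry (31.2%), against 7.15% of 32851 promoters and 8.09% of 27025 genes. Of these, 13 were measured, and 10 of the 13 were lower in KO_A12, with a median difference of -0.41 and a range of -0.91 to 0.17. Of the 30 measured genes without it, 21 were lower, with a median of -0.15 and a range of -1.02 to 0.54. The medians differed by -0.26. The ranges overlapped over most of their length, and Lamp1, with 4 E-boxes between 61 and 15 bases before the start, was at -0.16. Ctsa, with an E-box on either side of the start, was at -0.91, and Lipa had no match in this window. The genes without a promoter entry are in neither group. All of them were lower in KO_A12, between -1.32 for Atp6v0d2 and -0.05 for Ctsb, so the gap between the medians also depends on which genes had an entry. A part of the E-box in the differences was not tested.

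Longer and related motifs were rarer. The genes that carry them overlap, so their medians are not separate observations. Gla (-0.76) carried the E-box and every motif below, and Ctsa (-0.91) all but the last. TCACGTGA, which contains CACGTG with a T before and an A after it, was in 7 of the 48 genes (14.6%). It was in 0.974% of promoters and 1.12% of all genes searched. The 6 measured lysosome genes with it had a median of -0.34, and those without it of -0.16. The M-box TCATGTG, searched on both strands, was in 9 of the 48 genes, against 3.77% of promoters and 4.31% of all genes searched. The measured lysosome genes with it had a median of -0.32, against -0.16 without it. GAGGAAGT, a core sequence bound by PU.1 (the product of Spi1), was in 4 of the 48 genes on either strand. It was in 3.2% of promoters and 3.69% of genes. The 4 lysosome genes were Ctsc, Ctss, Gla and Gusb, of which Ctss and Gla also carried the M-box. All were lower in KO_A12, with a median of -0.7 and a range of -0.76 to -0.14. Of the 39 measured genes without it, 27 were lower, with a median of -0.17, and 4 genes are too few for a comparison. Spi1 had 16.61 in KO_A12 and 17.32 in WT_A12, and a part of PU.1 in the differences was not tested. The match of Ctss, at chr3:95526767-95526796 (plus strand, GRCm38.p6, RefSeq), spans the start and reads ACTTCCTC (capitals), the other strand of this motif.
Ctss: aaccgaaatgaaagttcACTTCCTCattgt

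**Figure D4:**
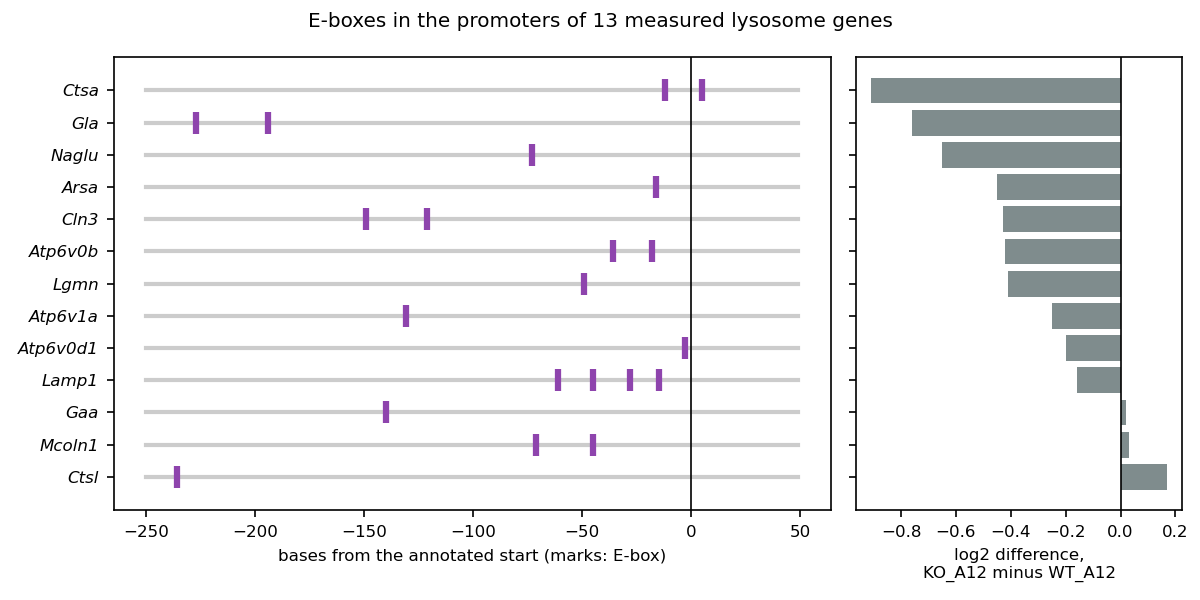
Positions of CACGTG in the promoters of the 13 measured lysosome genes that carry it, in bases from the annotated start (vertical line), beside the log2 difference of each gene (KO_A12 minus WT_A12, 1 array each). Genes are ordered by difference, with Ctsa at -0.91 first and Ctsl at 0.17 last, and 10 of the 13 lie below 0.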

How the data were processed

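Total RNA of epididymal fat from 3 mice per genotype was pooled and measured on 1 Clariom S Mouse Array per genotype. The authors normalized the raw data with STT-RMA in the GeneChip Console Software (the submitters' processing notes name RMA), and the deposited log2 signals were used as they stand. Which genome build and annotation lie behind them is not given in the sources used here. Of 28846 rows, 6640 controls were left out, and 22206 probe sets remained, 19572 with a gene symbol from the platform annotation and 2634 without. A gene in any list entered by its probe set of highest mean signal. The difference KO_A12 minus WT_A12 was set against all probe sets, with cutoffs of 2-fold and 1.5-fold and a signal over 7 on the higher array. With 1 array per genotype no test was run, and the number of arrays limits the precision. The text names every measured member, and of each other list up to 4 genes with the largest absolute difference and a signal over 7 on at least 1 array, plus Iah1; Adgre1, Csf1r, Mertk and Spi1 were named after their values were seen. Members and lists were chosen with earlier results of these data known. Alternatives were median centring, quantile normalization, a lowess trend (span 0.3), other signal cutoffs, classes and probe sets, and means. The computation was tested on simulated data. Analyses ran in Python 3.11.15 with statsmodels 0.14.6 for lowess, pandas 2.3.3 and numpy 2.4.6 for tables, and matplotlib 3.10.9 for figures.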

Additional observations from a re-analysis of the deposited data

How the results depend on the processing

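No paired analysis was possible because there is only 1 array per genotype, and for the same reason no replicate could be left out. Each lysosome gene has 1 probe set, so another choice of probe set could not move it. Median centring moved none of them either, because the median difference over all probe sets was 0. Only quantile normalization and the lowess trend could therefore move a gene. All 204 values of the 51 genes under the 3 scalings and the probe set alternative shifted by less than 0.297. This is the robust SD of the differences of probe sets over 7 on both arrays, a wide limit beside the genes' median difference of -0.27. The sign turned for Atp6ap2 (0.01 under quantile normalization and under the lowess trend), while Lamp2 came to 0.00 under quantile normalization. The number of genes past 2-fold lower was 2 under every scaling, past 1.5-fold lower 7 to 9 (8 under quantile normalization, without Naglu, and 7 under the lowess trend, without Naglu and Ctsk), and below 0 it was 37 to 39. Of 96 summary values under alternatives, 84 were kept, but median centring and the probe set alternative moved none of them. The median of all lysosome genes was -0.21 under quantile normalization and -0.21 under the lowess trend, against -0.27 as deposited. The narrow macrophage-enriched class gave medians of -0.72 and -0.26 for ubiquitous genes, a difference of -0.46, and the wide class gave -0.17 and -0.27, a difference of 0.10 with the sign reversed, because these classes hold other genes. When means over genes replaced medians, the other hydrolases were at -0.26 and the lysosome genes outside the list at -0.22. Alternatives added after seeing the data were the signal limit for neighbouring lists, which gave -0.22 for the other proton pump subunits and 0.01 for autophagy genes, against -0.08 and -0.02 over all measured, and the E-box letters, which gave differences of medians of -0.27 with 1 flanking base and -0.18 with both. The scalings started from signals already normalized, so the effect of the authors' scaling was not tested.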
